A study of Mus musculus with 13 samples.

Results

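The PYHIN (Ifi200) family was followed through 4 groups of mice in RNA-Seq of Lin- cKit+ BM cells. Its 9 members here were Aim2, Ifi203, Ifi204, Ifi205, Ifi207, Ifi209, Ifi211, Ifi213 and Mndal, taken by name from the 54838 genes of the count table after Ensembl identifiers had been matched to GENCODE M21. The family was chosen by the fold changes of NPmut against control HSPCs in earlier results of these libraries, in which Ifi205 was among the genes that differed most. The comparison of NPmut with control mice is therefore given for the members as a description, with no test. GENCODE annotates 5 further genes of the family, Ifi202b, Ifi203-ps, Ifi206, Ifi208 and Ifi214, which were followed beside the members.

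The study asked how mutant p53 cooperates with oncogenic Nras in leukemia. RNA came from 50000 sorted cells per mouse of 3 control mice with Mx1-Cre alone, 3 p53mut mice (Mx1-Cre; p53 R172H/+), 3 NrasG12D mice (Mx1-Cre; Nras G12D/+) and 4 NPmut mice with both mutant alleles (Mx1-Cre; p53 R172H/+; Nras G12D/+). The genotype field of the 3 NrasG12D libraries reads G21D, whereas their titles read G12D. Mx1-Cre, which all mice carried, is driven by an interferon-responsive promoter and is not restricted to blood cells. Control, p53mut and NrasG12D mice had been injected at about 6 weeks of age with 3 doses of 100 μg pI-pC, a synthetic RNA duplex that induces interferon and thereby Cre, and were age-matched to the NPmut mice. The NPmut mice had no pI-pC and were moribund. Genotype, injection and stage of disease cannot be told apart in any comparison with NPmut mice. This bears directly on a family of interferon-inducible genes.

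PYHIN proteins pair an N-terminal pyrin domain with a HIN domain that binds DNA. AIM2 senses DNA in the cytosol and recruits the adaptor ASC, encoded by Pycard, so that caspase-1 matures IL-1β and cleaves gasdermin D. The other mouse genes arose largely by local duplication on chromosome 1, are induced by interferon in myeloid cells, and act mostly on transcription, growth and the response to nucleic acids. IFI204 is known as a sensor of DNA upstream of STING and as a regulator of macrophage differentiation, and IFI205 as a nuclear protein of macrophages.

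Libraries held 12576174 to 29124022 counts, and the differences below are between mice, with 3 or 4 in a group. Kit, by which the cells were sorted, was present in every library with a mean of 540 CPM (counts scaled to 1e6 per TMM-adjusted library) in control and 371 CPM in NPmut HSPCs, and Ptprc, the pan-leukocyte antigen CD45, had 203 and 222 CPM. Group means were 54.4 to 61.4 CPM for Nras and 93.9 to 126 CPM for Trp53, whose mutant alleles gene counts do not tell from the normal ones. Summed CPM of 1474 odorant, vomeronasal and trace-amine receptor genes, which are not expected in blood cells and were taken as a gauge of background reads, were 143 ± 44.8 in control, 98.9 ± 39.6 in p53mut, 41.6 ± 3.45 in NrasG12D and 34.8 ± 20.3 in NPmut mice (SD, n = 3, 3, 3 and 4). At the same density per exonic base, background reads would make up 23.4% of the control counts of Ifi213, 19.9% of those of Ifi205, 12.7% of those of Ifi207, 7.29% of those of Ifi204, 4.95% of those of Ifi211, and under 0.4% of those of the other members. Beside the members the share was 77.8% for Ifi208, 18.6% for Ifi214, 15.1% for Ifi206 and 5.32% for Ifi203-ps. With the background reads of each library as a covariate, the counts of DEGs among the members were the same in every comparison, while single values moved as given below. In this gauge NPmut mice (17.5 to 57.3 CPM) lay below all control (103.5 to 191.6 CPM) and p53mut mice (58.9 to 138 CPM). Values of NPmut mice against these groups with the covariate thus rest on extrapolation and are not corrected estimates.

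The 14 genes form 1 cluster on chromosome 1 (GRCm38, chr1:173350879-174031810), with Aim2 at its left end and Ifi205 at its right. Aim2, Ifi209 and Ifi208 lie on the plus strand and the others on the minus strand. Cadm3, on the opposite strand, overlaps the left part of Aim2's span and had 79 counts over all libraries. Between Aim2 and Ifi205 the annotation places no other coding gene, only 5 further pseudogenes of the Gm series with at most 21 counts over all libraries and 2 microRNA genes with 0 counts. Mndal spans 93.4 kb on the minus strand. Ifi211 lies within that span, and Ifi203 overlaps it and runs past its end. Exons of Ifi203 and Mndal share 37 bases, and no other exons of the family overlap.

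**Figure D1:**
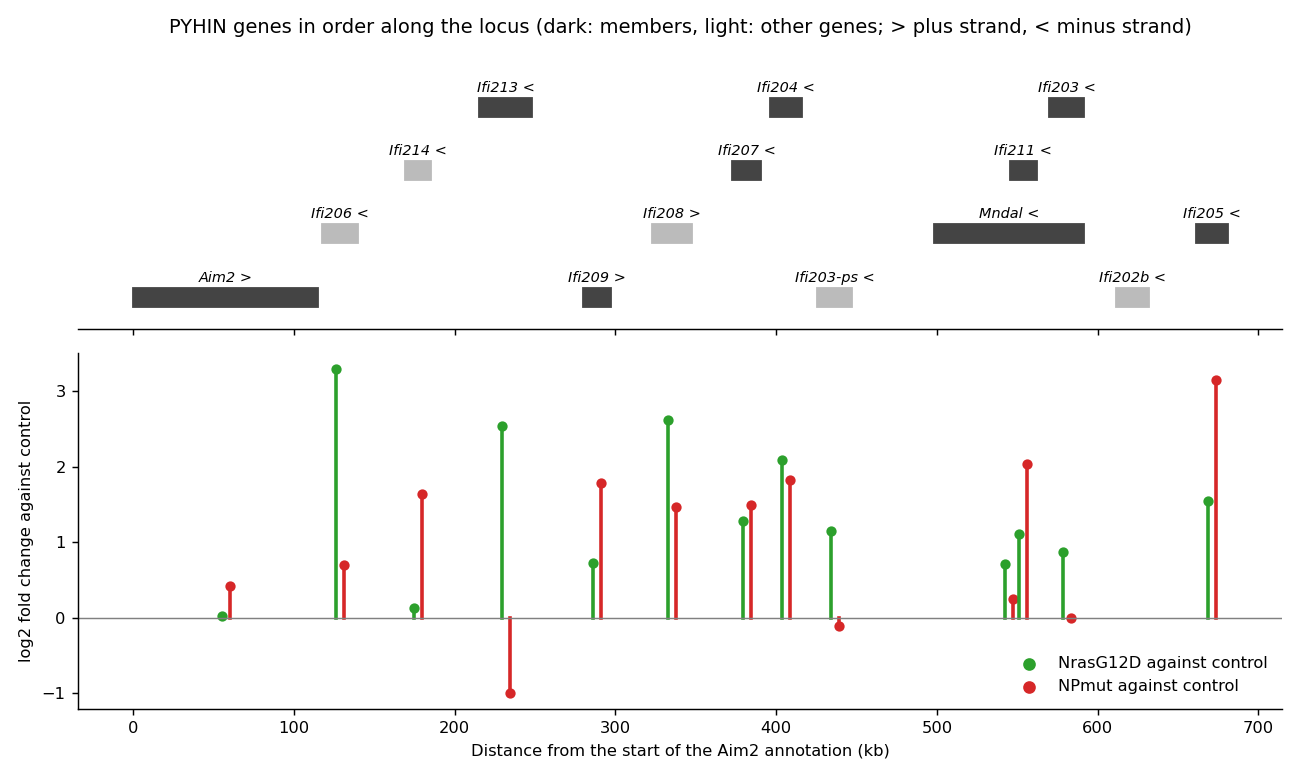
Upper panel, the 14 PYHIN genes by distance from the start of Aim2 (kb, x axis), with members dark and other genes of the family light. Lower panel, log2 fold change (y axis) of each tested gene in NrasG12D (green) and NPmut (red) against control mice; neighbors such as Ifi213 (2.54 and −0.99) and Ifi209 (0.72 and 1.79) differed in which mutant group stood higher.

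Recent duplication leaves stretches that reads cannot tell apart, and how the authors counted reads with several alignments is not given in the sources used here. Of all 75-base stretches of the Ifi211 transcripts, 63.6% occur unchanged in transcripts of another annotated gene, with 40.6% in Ifi205, 23.0% in Ifi204 and 10.4% in Mndal. The share was 23.1% for Ifi209, all with Ifi214, 16.7% for Ifi205, mainly with Ifi211, 13.2% for Ifi204, 11.1% for Mndal, 8.07% for Ifi213, 5.71% for Ifi203, 2.80% for Ifi207, and 0% for Aim2. Values of Ifi211 are thus uncertain as to the gene of origin, and they are given with Ifi205 summed as well.

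Promoters were read from RefSeq (GRCm38.p6) as windows from 250 bases before to 50 after the annotated start. Of the 14 genes, 12 had a window, and Ifi203 and Mndal had 2 each, so that 14 windows were compared. Ifi204 and Ifi203-ps had none. Aligned end to end, 6 pairs of genes were at least 80% identical over the window: Ifi209 and Ifi214 at 95.7%, Ifi203 and Mndal at 94.0%, Ifi208 and Ifi213 at 94.0%, Ifi206 and Ifi208 at 93.0%, Ifi206 and Ifi213 at 87.7%, and Ifi207 and Ifi211 at 86.7%. All other pairs stood at or below 63.0%. For genes with 2 windows the highest identity of any window pair was taken. The 94.0% of Ifi203 and Mndal came from the second start of Ifi203 and the first of Mndal. The first start of Ifi203 was 34.7% and 2.67% identical to the 2 Mndal windows. The windows are shown from 150 bases before to 50 after the start for 8 genes whose levels differed most between mutant groups or that pair with one that did, 5′ to 3′ on the gene's strand, with capitals for matches to the core of the interferon-stimulated response element (ISRE), searched as GAAA, 2 bases of any kind and GAAA again, or its reverse complement. Of the RefSeq starts of Ifi203 the second is shown, and of those of Mndal the first. The RefSeq start lies 69725 bases from the GENCODE start for Aim2, and 62304 bases for the shown start of Mndal. The shown start of Ifi203 (173942492) lies beside the GENCODE start of Mndal (173942491), so which gene that window serves is not certain.
Ifi209 (chr1:173630709-173630908, plus strand): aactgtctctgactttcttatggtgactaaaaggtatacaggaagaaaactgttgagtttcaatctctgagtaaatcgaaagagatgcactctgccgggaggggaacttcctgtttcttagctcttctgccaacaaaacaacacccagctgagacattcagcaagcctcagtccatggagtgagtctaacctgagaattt
Ifi214 (chr1:173535908-173536107, minus strand): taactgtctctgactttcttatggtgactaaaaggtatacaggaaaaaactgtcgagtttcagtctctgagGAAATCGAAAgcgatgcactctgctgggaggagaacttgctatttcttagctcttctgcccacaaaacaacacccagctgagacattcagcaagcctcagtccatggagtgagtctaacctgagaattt
Ifi213 (chr1:173599223-173599422, minus strand): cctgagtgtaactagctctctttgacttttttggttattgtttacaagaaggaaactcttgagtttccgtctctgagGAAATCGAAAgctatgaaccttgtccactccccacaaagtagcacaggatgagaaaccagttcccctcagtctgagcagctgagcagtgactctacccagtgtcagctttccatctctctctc
Ifi206 (chr1:173491269-173491468, minus strand): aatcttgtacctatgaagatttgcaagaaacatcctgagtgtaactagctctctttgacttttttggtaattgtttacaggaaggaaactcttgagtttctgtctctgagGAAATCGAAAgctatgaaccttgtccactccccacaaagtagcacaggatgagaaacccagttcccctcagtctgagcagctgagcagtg
Ifi203 (chr1:173942443-173942642, minus strand): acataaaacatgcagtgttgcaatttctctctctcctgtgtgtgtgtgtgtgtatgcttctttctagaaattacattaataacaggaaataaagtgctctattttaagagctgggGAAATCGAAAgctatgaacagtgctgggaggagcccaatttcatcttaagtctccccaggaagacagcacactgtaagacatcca
Mndal (chr1:173880138-173880337, minus strand): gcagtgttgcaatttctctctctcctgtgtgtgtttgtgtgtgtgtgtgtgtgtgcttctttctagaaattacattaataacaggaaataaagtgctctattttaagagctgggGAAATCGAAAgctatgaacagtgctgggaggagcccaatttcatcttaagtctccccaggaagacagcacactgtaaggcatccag
Ifi205 (chr1:174031706-174031905, minus strand): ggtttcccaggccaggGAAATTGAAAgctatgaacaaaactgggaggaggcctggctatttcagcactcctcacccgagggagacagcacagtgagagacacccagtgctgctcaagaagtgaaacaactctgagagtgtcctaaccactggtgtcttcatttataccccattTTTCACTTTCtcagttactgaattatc
Ifi211 (chr1:173912997-173913196, minus strand): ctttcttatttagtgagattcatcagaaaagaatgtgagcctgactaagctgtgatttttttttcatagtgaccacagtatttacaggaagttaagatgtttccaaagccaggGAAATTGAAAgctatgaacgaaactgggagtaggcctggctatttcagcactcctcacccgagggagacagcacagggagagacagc

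The ISRE core was present in 9 of 12 genes and 10 of 14 windows of the family, against 3.45% of all 32544 promoter windows. Its first base lay 35 to 79 bases before the start in Ifi203, Mndal, Ifi206, Ifi207, Ifi208, Ifi211, Ifi213 and Ifi214. Ifi205 had a match 134 bases before its start and another after it. Ifi209, Aim2 and Ifi202b had none. The Ifi209 window, otherwise nearly the same as that of Ifi214, differs by G1T in this stretch, counted from its first base (GAAATCGAAA in Ifi214 and TAAATCGAAA in Ifi209). The GAS element TTCNNNGAA was found only in Ifi202b (8.33% of all windows), the PU box GAGGAAG only in Aim2 (13.4%), and the GATA motif AGATAA in none of the family's windows (11.2%), each searched on both strands. A match describes the letters of a window and does not show binding.

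**Figure D2:**
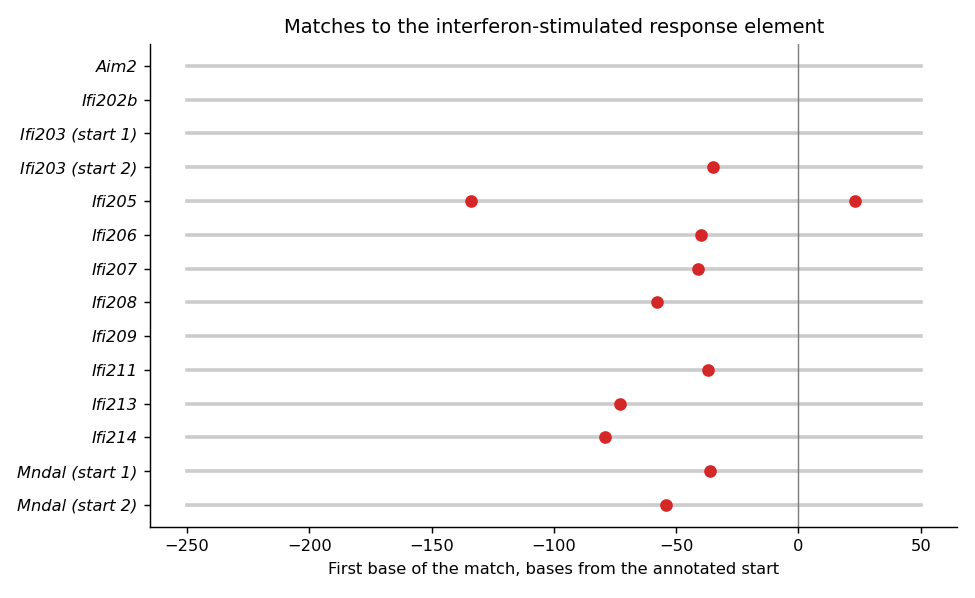
Matches to the ISRE core (red points) in each promoter window (grey line), with the x axis in bases from the annotated start. In 8 genes the match lies between 35 and 79 bases before the start, and the rows of Aim2, Ifi202b, Ifi209 and the first start of Ifi203 are empty.

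All 9 members passed the filter on low counts, as did 4 of the 5 other genes, and Ifi202b had 0 counts in every library. Aim2, Ifi209, Ifi203 and Mndal carried 92.4% of the reads counted for the family, and every other gene averaged at most 3.25 CPM. Per kilobase of exon, Mndal had the highest level in control HSPCs with 11.8 ± 1.61 RPKM (SD, n = 3), followed by Ifi209 with 9.08 ± 1.98, Aim2 with 8.21 ± 0.620 and Ifi203 with 7.52 ± 1.71, and neighbors in this order overlapped. The remaining members lay between 0.115 RPKM for Ifi213 and 0.533 RPKM for Ifi211. In NPmut HSPCs the order was led by Ifi209 with 28.8 ± 7.40 RPKM (SD, n = 4), and its lowest mouse, at 23.2 RPKM, stood above the highest NPmut value of Mndal, 16.1 RPKM. In NrasG12D HSPCs Mndal led with 18.9 ± 2.52 RPKM, and Ifi209 with 14.7 ± 5.03 and Ifi203 with 13.5 ± 1.76 overlapped it or each other.

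**Figure D3:**
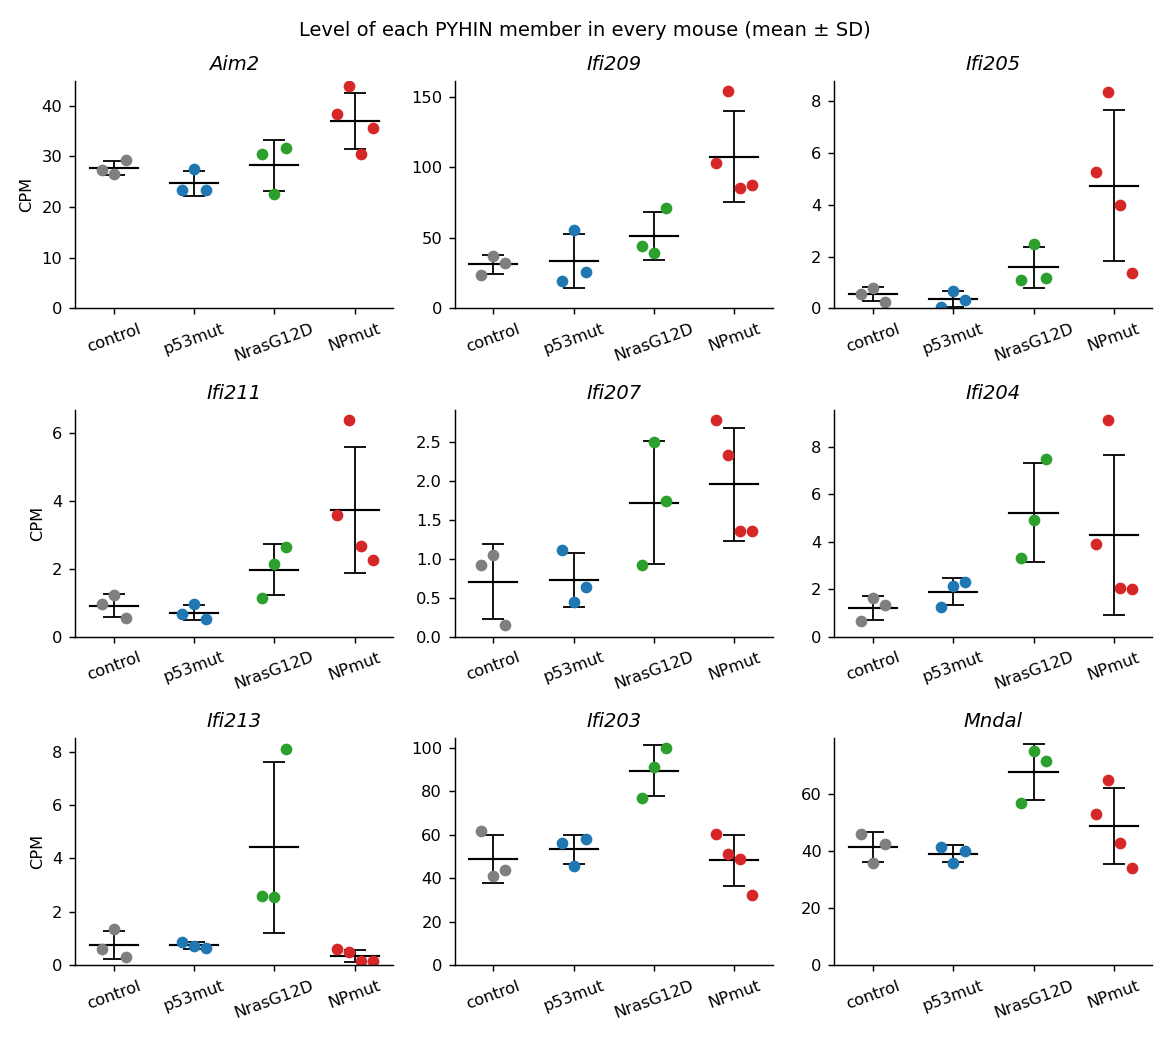
CPM (y axis, each panel from 0) of the 9 members in every mouse of the 4 groups (x axis); points are mice, the wide bar is the mean and the whiskers are 1 SD. Ifi209 ranged from 85.1 to 154 CPM in NPmut and from 19.6 to 70.8 CPM in all other mice, whereas Ifi213 and Ifi203 peaked in NrasG12D mice.

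Summed over all PYHIN genes, the level was 156 CPM (150 to 166) in control and 159 CPM (148 to 175) in p53mut mice, against 262 CPM (227 to 306) in NrasG12D and 262 CPM (200 to 349) in NPmut mice (mean and range, n = 3, 3, 3 and 4). Every NrasG12D and NPmut mouse lay above every control and p53mut mouse. The 2 groups with mutant Nras overlapped in this sum and differed in its makeup. Ifi209 took 40.8% ± 3.70 of the family's counts in NPmut mice and 19.4% ± 3.79 in NrasG12D mice, against 20.1% ± 5.38 in controls (SD, n = 4, 3 and 3).

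Ifi209 had the largest difference in CPM between NPmut and control HSPCs among the members. Its level was 23.7, 37.4 and 32.3 CPM in control, 19.6, 55.7 and 25.7 CPM in p53mut, 44.4, 39.1 and 70.8 CPM in NrasG12D and 103, 154, 85.1 and 87.1 CPM in NPmut mice. The NPmut mice stood above all others, and the NrasG12D mice above the control but not the p53mut mice. NPmut HSPCs had a log2 fold change of 1.79 ± 0.36 (SE) against control HSPCs, a 3.45-fold level, and 2.54 with background reads as a covariate. Background reads would make up only 0.286% of the control counts of Ifi209, so 2.54 is not a background-corrected value.

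Ifi205, the farthest member from Aim2, had few reads outside the NPmut group, 5 to 13 counts in control and 1 to 9 in p53mut libraries. Its level was 0.575, 0.801 and 0.256 CPM in control, 0.0739, 0.665 and 0.346 CPM in p53mut, 1.09, 2.49 and 1.16 CPM in NrasG12D and 5.26, 8.35, 3.98 and 1.35 CPM in NPmut mice. NPmut replicate 4 lay within the NrasG12D range, and the other 3 NPmut mice lay above it. The log2 fold change of NPmut against control was 3.14 ± 0.65 (SE), with a range of 2.72 to 3.54 when single mice were dropped, and it was 4.37 with background reads as a covariate.

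Ifi211, the gene that shares most sequence with Ifi205, had 0.977, 1.23 and 0.563 CPM in control, 0.665, 0.961 and 0.520 CPM in p53mut, 1.15, 2.16 and 2.64 CPM in NrasG12D and 3.59, 6.41, 2.69 and 2.28 CPM in NPmut mice. All NPmut mice lay above all control and p53mut mice, and they overlapped the NrasG12D mice. Its log2 fold change against control was 2.03 ± 0.45 (SE), and 3.02 with background reads as a covariate. The sum of Ifi205 and Ifi211 does not depend on how reads shared by the pair were split between them. It would still change if such reads were dropped or counted for both genes. Stretches that Ifi211 shares with Ifi204 and Mndal are not covered by it. The sum was 1.47 ± 0.612 CPM in control, 1.08 ± 0.480 CPM in p53mut, 3.56 ± 1.22 CPM in NrasG12D and 8.48 ± 4.70 CPM in NPmut mice (SD, n = 3, 3, 3 and 4).

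Ifi207 overlapped between NrasG12D and NPmut mice, with 0.918 to 2.49 and 1.35 to 2.78 CPM, against 0.154 to 1.05 CPM in control and 0.444 to 1.11 CPM in p53mut mice. Its log2 fold change for NPmut against control was 1.49 ± 0.56 (SE). Aim2, the inflammasome sensor, had 27.3, 26.6 and 29.3 CPM in control, 23.3, 27.6 and 23.3 CPM in p53mut, 30.5, 22.5 and 31.7 CPM in NrasG12D and 38.3, 43.8, 30.5 and 35.6 CPM in NPmut mice. The NPmut mice lay above the control and p53mut mice by a log2 fold change of 0.42 ± 0.15 and 0.58 ± 0.15 (SE), and their lowest mouse lay within the NrasG12D range.

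Against control, 6 of the 9 members lay higher in every NPmut mouse than in any control mouse, as did 10.2% of all 17795 genes tested, and 5 of 9 had at least a 2-fold higher level, as did 4.68% of all genes. These were Ifi205, Ifi211, Ifi204, Ifi209 and Ifi207, and Aim2 was the member that lay apart at less than 2-fold. No member lay apart on the lower side, where 11.7% of all genes did. Nothing is read from these counts, since the contrast was known when the family was picked. Among the other genes, Ifi214, whose promoter window is nearly the same as that of Ifi209, had a log2 fold change of 1.63 ± 0.61 (SE), with 2.02 to 6.64 CPM in NPmut and 0.575 to 2.16 CPM in control mice.

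**Figure D4:**
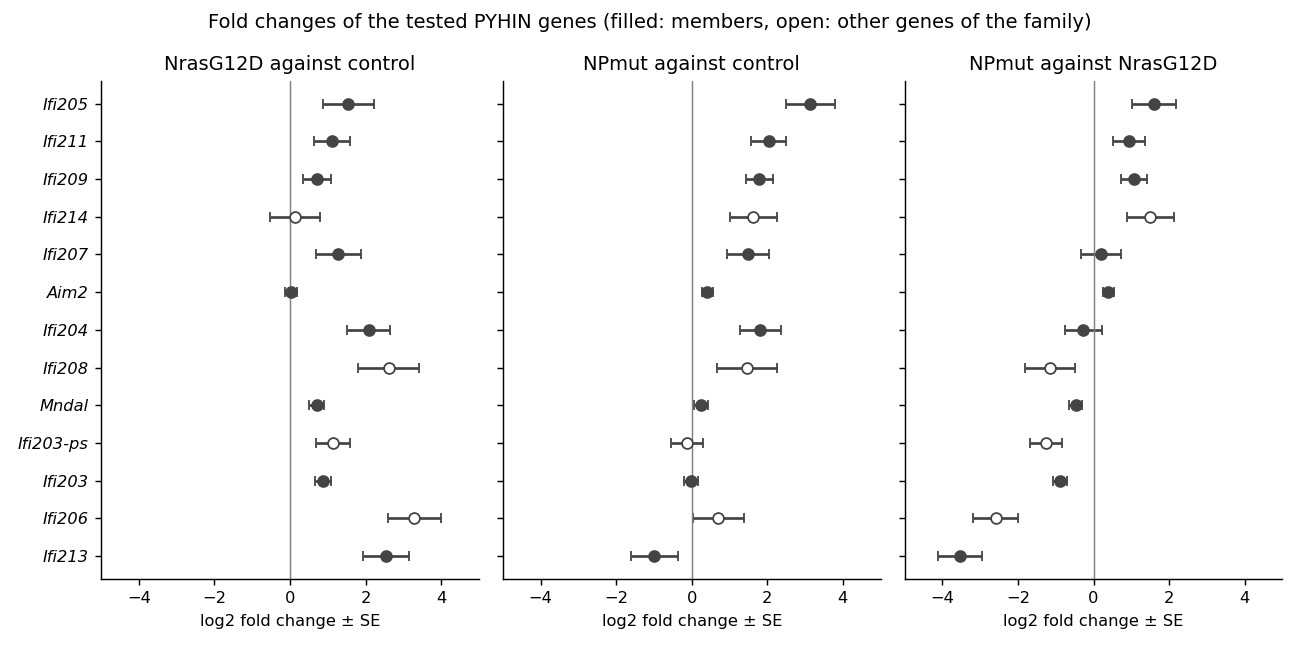
Log2 fold change ± SE (x axis, edgeR fit to 13 libraries) of the 13 tested PYHIN genes, with members filled and other genes of the family open, for the 3 comparisons named above the panels. The genes are in the order used to show the split in the right panel, from Ifi205 at 1.60 to Ifi213 at −3.53.

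Other members stood highest in NrasG12D HSPCs. Ifi213 had 0.632, 1.36 and 0.307 CPM in control, 0.887, 0.739 and 0.635 CPM in p53mut, 2.58, 2.55 and 8.11 CPM in NrasG12D and 0.607, 0.496, 0.161 and 0.169 CPM in NPmut mice. Every NrasG12D mouse lay above every mouse of the other groups, and every NPmut mouse lay below every p53mut mouse. These levels rest on 39 to 126 counts in NrasG12D and 2 to 13 in NPmut libraries. NrasG12D replicate 3 was the highest, and without it the log2 fold change of NrasG12D against control was 1.76 in place of 2.54. NPmut and control mice overlapped, and their difference of −0.99 was −0.29 without control replicate 2 and −0.48 with background reads as a covariate.

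Ifi203 had 61.5, 40.9 and 43.9 CPM in control, 56.3, 45.8 and 57.9 CPM in p53mut, 76.9, 91.3 and 99.9 CPM in NrasG12D and 60.3, 51.2, 49.0 and 32.5 CPM in NPmut mice. The NrasG12D mice lay above all others, and the other 3 groups overlapped. Mndal is named for its likeness to the myeloid nuclear antigen MNDA, and its first window resembles that of the second start of Ifi203. Mndal had 46.0, 35.8 and 42.4 CPM in control, 41.4, 35.7 and 40.0 CPM in p53mut, 56.7, 75 and 71.5 CPM in NrasG12D and 53.1, 64.9, 43.0 and 34.0 CPM in NPmut mice. Here the NPmut mice spread from below the lowest control mouse into the NrasG12D range.

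Of the genes beside the members, Ifi206 and Ifi208, whose promoter windows resemble that of Ifi213, also had their highest mean in NrasG12D mice. Ifi206 had 0.308 to 0.862 CPM in control, 0.961 to 1.33 CPM in p53mut, 4.07 to 5.60 CPM in NrasG12D and 0.0843 to 2.12 CPM in NPmut mice. Ifi208 had 0.0616 to 0.345, 0 to 0.148, 0.574 to 1.42 and 0.191 to 0.961 CPM in the same order, with at most 22 counts in any library. Background reads would make up 77.8% of its control and 102% of its p53mut counts, so Ifi208 did not stand clear of background there. Summed over Ifi206, Ifi208 and Ifi213, the level was 1.44 ± 0.589 CPM in control, 2.00 ± 0.316 CPM in p53mut, 10.5 ± 4.10 CPM in NrasG12D and 1.65 ± 1.39 CPM in NPmut mice (SD, n = 3, 3, 3 and 4). The pseudogene Ifi203-ps had 1.70 to 3.50 CPM in NrasG12D and 0.610 to 1.72 CPM in all other mice.

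Ifi204, the STING-linked DNA sensor, was high in both groups with mutant Nras. It had 0.690, 1.66 and 1.33 CPM in control, 1.26, 2.14 and 2.31 CPM in p53mut, 3.33, 4.91 and 7.47 CPM in NrasG12D and 3.90, 9.15, 2.04 and 2.02 CPM in NPmut mice. The NrasG12D mice lay above all control and p53mut mice, whereas 2 NPmut mice lay within the p53mut range. NPmut replicate 2 was the highest, and without it the log2 fold change of NPmut against control was 1.12 in place of 1.82. With background reads as a covariate it was 2.49.

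The remaining comparisons were tested with edgeR's quasi-likelihood test on all 17795 genes, with Benjamini-Hochberg adjustment over all of them, and a DEG had an adjusted p-value under 0.05 and at least a 2-fold change. The first comparison took mutant p53 alone. Of 9 members, 0 were DEGs between p53mut and control mice, as were 0% of all genes, and 0 had an unadjusted p-value under 0.05, against 412 of all genes. Log2 fold changes of the members ran from −0.56 for Ifi205 to 0.64 for Ifi204, with a median of −0.01, and 0 of 9 lay apart in either direction (11.1% of all genes). DESeq2 also called 0 members. Among the other genes, Ifi206 lay higher in every p53mut than in every control mouse, with a log2 fold change of 1.16 ± 0.71 (SE).

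For mutant Nras alone, no member passed the adjusted threshold in edgeR. Of 9 members, 0 were DEGs between NrasG12D and control mice, as were 0.00562% of all genes, and 7 had an unadjusted p-value under 0.05, against 1620 of all 17795 genes. Every member had a positive log2 fold change, with a median of 1.10 against −0.02 over all genes, and 6 of 9 lay apart on the higher side, as did 10.2% of all genes. At least a 2-fold higher level was found for 5 of 9 members and 1.57% of all genes. The control libraries also entered the comparison on which the family was chosen, so these counts are not independent of that choice. Ifi211 shares stretches with Ifi204 and Ifi205, so these members are not fully separate observations. Log2 fold changes were 2.54 ± 0.61 for Ifi213, 2.09 ± 0.57 for Ifi204, 1.54 ± 0.68 for Ifi205, 1.28 ± 0.60 for Ifi207, 1.10 ± 0.48 for Ifi211, 0.87 ± 0.20 for Ifi203, 0.72 ± 0.37 for Ifi209, 0.71 ± 0.19 for Mndal and 0.03 ± 0.16 for Aim2 (SE). The lowest adjusted p-value among the members was 0.166, for Ifi203, and among the other genes 0.108, for Ifi206 with a log2 fold change of 3.29 ± 0.70 (SE). DESeq2 called 2 members in this comparison, Ifi213 with an adjusted p-value of 0.018 and Ifi204 with 0.0316.

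NrasG12D mice were also compared with p53mut mice, which had the same injections. Of 9 members, 0 were DEGs, as were 0% of all genes, and 6 had an unadjusted p-value under 0.05, against 850 of all genes. The log2 fold changes ran from 0.19 for Aim2 to 2.54 for Ifi213 with a median of 1.22, and 6 of 9 members lay apart on the higher side (6.25% of all genes). DESeq2 called 1 member, Ifi213, with an adjusted p-value of 0.0442.

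Between NPmut and p53mut mice, 2 of 8 members were DEGs, against 5.21% of all genes, and 3 of 8 passed on the higher side at any size, against 4.72%. These tests reuse the NPmut libraries on which the family was chosen, so they are not independent of that choice. Both counts include Ifi211, which is left as a description below, so nothing is read from them. Ifi205 is described without a test in comparisons with NPmut mice. Ifi211, counted among the DEGs, had a log2 fold change of 2.40 ± 0.47 (SE), which is likewise left as a description because it shares 40.6% of its 75-base stretches with Ifi205. Ifi209 rose by 1.68 ± 0.36 (SE, adjusted p = 0.0123, edgeR), although without p53mut replicate 3 its adjusted p-value was 0.0702. Aim2 rose at less than 2-fold, by 0.58 ± 0.15 (SE, adjusted p = 0.0224, edgeR), but had adjusted p-values of 0.104 and 0.103 (edgeR) without p53mut replicate 1 and without p53mut replicate 3, of 0.111 with background reads as a covariate, and of 0.0745 with only the compared groups in the fit. Ifi205 had a log2 fold change of 3.70 ± 0.69 (SE). Ifi207 and Ifi204 had 1.43 ± 0.57 and 1.18 ± 0.52 (SE), with adjusted p-values of 0.136 and 0.181 (edgeR), and Mndal, Ifi203 and Ifi213 had 0.32, −0.14 and −0.99. Of 9 members 5 lay apart on the higher side (8.96% of all genes) and Ifi213 on the lower (10.7% of all genes), where its adjusted p-value was 0.375 (edgeR), and 0.732 with background reads as a covariate. The 5 on the higher side include Ifi205 and Ifi211, so nothing is read from this count either.

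The members differed in direction between NPmut and NrasG12D mice. These tests, too, reuse the NPmut libraries on which the family was chosen, so they are not independent of that choice. Ifi213 fell by 3.53 ± 0.58 on the log2 scale (SE, adjusted p = 0.00262, edgeR) and was the only DEG among 8 members, against 4.42% of all genes. It passed without any single mouse, with adjusted p-values of 0.00313 to 0.0177. Ifi203 fell by 0.88 ± 0.19 on the log2 scale, at less than 2-fold (SE, adjusted p = 0.00935, edgeR), and 4.86% of all genes passed on the lower side. Of the other genes Ifi206 fell by 2.59 ± 0.60 on the log2 scale (SE, adjusted p = 0.0148, edgeR), and its adjusted p-value was 0.0541 without NrasG12D replicate 2. All NPmut mice lay below all NrasG12D mice for these 3 genes, as they did for 10.9% of all genes. Ifi209 had a log2 fold change of 1.06 ± 0.35 and lay higher in every NPmut mouse (9.51% of all genes did), with an adjusted p-value of 0.0828 in edgeR and 0.0106 in DESeq2. Ifi211 had 0.93 ± 0.42 (SE), again left as a description. Ifi207 had 0.20 ± 0.52, Aim2 0.39 ± 0.15, Ifi204 −0.27 ± 0.49 and Mndal −0.47 ± 0.18 (SE), with adjusted p-values within 0.117 to 0.854 (edgeR). Without NPmut replicate 2 that of Mndal was 0.0151, at −0.65.

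The interaction, NPmut minus p53mut minus NrasG12D plus control on the log2 scale, was estimated with its SE and no test. It was −3.52 ± 0.88 for Ifi213, −1.02 ± 0.28 for Ifi203 and, beside the members, −3.76 ± 0.93 for Ifi206. It was 2.16 ± 0.97 for Ifi205, 1.30 ± 0.66 for Ifi211, 0.96 ± 0.51 for Ifi209 and 0.56 ± 0.22 for Aim2. For Mndal, Ifi204 and Ifi207 it was −0.39 ± 0.26, −0.90 ± 0.75 and 0.15 ± 0.82.

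Across the 13 libraries, the correlation of levels differed widely between pairs of PYHIN genes. Its relation to distance along the chromosome was not tested. Pearson's r of log2 CPM was 0.952 for Ifi206 and Ifi203, 0.93 for Ifi211 and Ifi205, 0.895 for Ifi209 and Ifi211, 0.838 for Mndal and Ifi203, 0.819 for Ifi214 and Ifi209, and 0.814 for Ifi213 and Ifi203. By contrast, r was −0.124 for Ifi209 and Ifi203, −0.159 for Ifi213 and Ifi209, and −0.291 for Aim2 and Ifi206. The libraries share their groups, and pairs such as Ifi211 and Ifi205 share reads. Over the 11 tested genes with a promoter window, the 6 pairs at least 80% identical had r of 0.485 to 0.838 with a median of 0.803, and the 49 other pairs had r of −0.30 to 0.952 with a median of 0.385. All 6 alike pairs also share 75-base transcript stretches, such as 23.05% of those of Ifi209 with Ifi214, whereas most of the 49 other pairs share none. Promoter identity and shared reads can therefore not be told apart here. The pairs share genes, so these values are a description. Within groups, r was 0.814 for Ifi214 and Ifi209, 0.796 for Mndal and Ifi203, and 0.23 for Ifi213 and Ifi208.

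**Figure D5:**
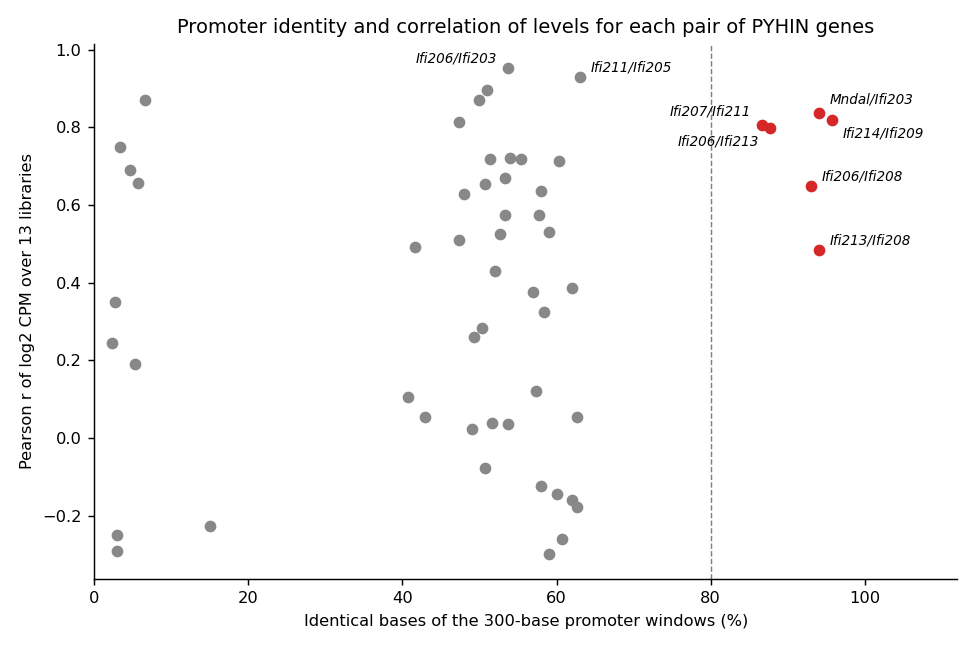
Each point is a pair of PYHIN genes, with identical bases of the aligned promoter windows (x axis, %) against Pearson's r of log2 CPM over 13 libraries (y axis). The 6 pairs right of the dashed line at 80% (red) lie between 0.485 and 0.838, and 49 other pairs (grey) range from −0.30 to 0.952.

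Outside the family, the genes most like each member over the 13 libraries were sought among the 12970 genes whose mean log2 CPM reached 1. For Ifi209 they were H13 (r = 0.966), Slc9a7 (0.95) and Csf1r (0.949), the M-CSF receptor of monocytes, which had 54.8 ± 4.72 CPM in control and 153 ± 32.9 CPM in NPmut mice (SD, n = 3 and 4). For Ifi205 they were Cd74 (0.955), the MHC class II invariant chain, Plbd1 (0.948) and Lpxn (0.942), and for Ifi211 Cdc42se1 (0.949), Id2 (0.945) and Otulinl (0.944). The genes most like Ifi213 were Daxx (0.931), Parp9 (0.908) and Usp18 (0.905), those most like Mndal were Epsti1 (0.96), Pink1 (0.929) and Bst2 (0.914), and those most like Ifi203 were Gvin1 (0.939), Slfn5 (0.917) and Stat4 (0.899). Parp9, Usp18, Epsti1, Bst2 and Gvin1 are known to be induced by interferon. Ifi204 was most like BC147527 (0.912), H2-D1 (0.905) and Trafd1 (0.904), Ifi207 most like Tnfsf8 (0.906), Nr2f6 (0.898) and Emp1 (0.889), and Aim2 most like Gm36161 (0.96), Gm21188 (0.937) and Vps11 (0.936).

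Of the other type I interferon-stimulated genes, none rose in NPmut HSPCs by edgeR's test. Of 24 tested, 0 rose and 7 fell as DEGs against control (2.27% of all genes were higher DEGs and 3.71% lower ones), with a median log2 fold change of −0.73 against 0.01 over all genes. Against NrasG12D mice 16 of 24 fell as DEGs (2.58% of all genes), with a median of −1.83. Oas2, a sensor of double-stranded RNA, fell by 2.16 on the log2 scale against control (adjusted p = 0.00119, edgeR) and by 4.06 against NrasG12D (adjusted p = 4.17e-05, edgeR). In NrasG12D against control mice 0 of 24 passed, with adjusted p-values of 0.0551 and above, while 22 of 24 lay apart on the higher side (10.2% of all genes) with a median of 1.55. The summed level of the list was 257 to 306 CPM in control, 264 to 331 CPM in p53mut, 493 to 670 CPM in NrasG12D and 177 to 227 CPM in NPmut mice. Ifi213, Ifi206 and Ifi203 had their highest mean in NrasG12D mice, as this list did, whereas Ifi209, Ifi205 and Ifi211 had theirs in NPmut mice, where the summed level of the list was lowest.

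Genes of the AIM2 inflammasome and pyroptosis, from a list written from general knowledge, gave 2 DEGs of 13 tested against control, both higher (2.27% of all genes). Mefv, which encodes pyrin, rose by 1.65 on the log2 scale (adjusted p = 0.00563, edgeR), from 30.5 ± 4.25 to 95.6 ± 23.1 CPM, and Il1b rose by 2.76 (adjusted p = 0.04, edgeR), from 0.622 ± 0.109 to 4.24 ± 2.92 CPM (SD, n = 3 and 4), although the lowest NPmut mouse, at 0.215 CPM, was below all controls. Nlrc4 and Gsdmd rose at less than 2-fold, by 0.80 and 0.48 on the log2 scale (adjusted p = 0.0128 and 0.0338, edgeR). Nlrp3, the sensor of another inflammasome, had the largest difference of the list, 2.96 ± 0.89 on the log2 scale (SE), and did not pass (adjusted p = 0.0576, edgeR). It had 1.55 to 10.3 CPM in control and 11.2 to 55.2 CPM in NPmut mice, which did not overlap. Pycard and Casp1, which act directly downstream of AIM2, differed by 0.65 and 0.39 on the log2 scale and did not pass (adjusted p = 0.15 and 0.235, edgeR).

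Of 15 tested genes for sensing of cytosolic DNA and RNA, 1 was a DEG on the higher side against control (2.27% of all genes). This was Tlr9, by 1.76 on the log2 scale (adjusted p = 0.0193, edgeR). On the lower side 3 were DEGs (3.71% of all genes). Ddx58, which encodes RIG-I, fell by 1.35 on the log2 scale, Ifih1, which encodes MDA5, fell by 1.21 and Irf7 fell by 1.01 (adjusted p = 0.00091, 0.000527 and 0.0361, edgeR). Of 16 interferon receptors, kinases and transcription factors, 2 were DEGs, both higher (2.27% of all genes). Irf5 rose by 2.19 and Irf8 by 1.84 on the log2 scale (adjusted p = 0.000105 and 0.000453, edgeR), both transcription factors of myeloid cells.

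The summed monocyte and macrophage markers had their highest mean in NPmut mice, as Ifi209, Ifi205 and Ifi211 did. Beside the counts of marker DEGs that follow, 2.27% of all genes were higher DEGs against control and 3.71% lower ones. Of 12 monocyte and macrophage markers, 6 rose as DEGs against control, among them Csf1r, F13a1 and Cd68 by 1.48, 1.57 and 1.38 on the log2 scale (adjusted p = 0.00251, 0.000907 and 0.000327, edgeR), and 0 fell. Their summed level was 640 to 724 CPM in control, 567 to 1044 CPM in p53mut, 517 to 796 CPM in NrasG12D and 1523 to 2590 CPM in NPmut mice. The highest mouse of the p53mut group for these markers, replicate 2, was also its highest for Ifi209, and NPmut replicate 2 was the highest of its group for both. The same mice were the highest of their groups for the summed neutrophil and GMP markers (18400 and 23000 CPM), so this match is not particular to monocyte markers. Dendritic cell markers summed to 308 to 355 CPM in control, 429 to 531 CPM in NrasG12D and 666 to 825 CPM in NPmut mice, with 5 of 10 higher and 1 lower as DEGs, Irf8 and Flt3 among the higher ones. Most of the difference in this sum came from Irf8 (means of 135 CPM in control and 483 CPM in NPmut mice) and Flt3 (71.8 and 159 CPM). Irf8 was also counted in the interferon list above. Zbtb46, the lower one, had 20.9 and 9.83 CPM. Of 7 megakaryocyte markers 7 fell as DEGs, as did 3 of 11 erythroid markers and 4 of 10 HSPC markers, with Flt3, which stands in 2 lists, as the 1 higher HSPC marker. Neutrophil and GMP markers had 1 DEG of 12 against control, mast cell and basophil markers 1 of 7, and B lymphoid and T and NK lymphoid markers 0 of 7 and 0 of 4. The part of these markers in the levels of the PYHIN genes was not tested. In sorted bulk RNA, fewer cells of a type and less RNA per cell cannot be told apart.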

How the data were processed

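RNA-Seq of Lin- cKit+ BM cells from 13 mice was used. The authors deposited raw read counts per gene, whole numbers under Ensembl identifiers, in 1 table. The submitters' processing notes name STAR 2.6.1d, R 3.6.1, DESeq2 1.26.0 and GRCm38.p6, and the counting program and its handling of strand and of reads with several alignments are not given in the sources used here. Each column name matched the mouse code of 1 title, and 0 columns were left without a sample. Of the identifiers, 54809 of 54838 are in GENCODE M21, whose names, exons and coordinates were used.

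The tests used edgeR 4.0.16 with limma 3.58.1 under R 4.3.3, in 1 quasi-likelihood model of the counts with robust estimation, TMM factors, a mean for each of the 4 groups and no covariate, on 17795 genes kept by filterByExpr. Adjusted p-values follow Benjamini and Hochberg (Benjamini-Hochberg) across those genes. The labels do not tell more of the replicates than that they are separate mice. CPM were computed on TMM-scaled library sizes, RPKM on library totals and exonic length, and log2 CPM with a prior count of 2. At 12576174 to 29124022 counts per library, members with few counts have imprecise fold changes.

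The members, gene lists, tests and alternatives were chosen with earlier results of these data known. Genes named are the family, the 3 genes most like each member, up to 4 genes of each pathway list with the largest changes among those that passed, and Nlrp3, Pycard, Casp1 and the marker genes, which were chosen after their values were seen. Promoter windows of 300 bases came from RefSeq, and identity is the number of identical bases in a global alignment with free end gaps over the window length. Sex, used as a covariate, was taken from Y-linked genes. The procedure was tested on simulated data. The closing section gives the effect of using DESeq2 1.42.0, of scaling by RLE or by plain totals, of no filter or a stricter one, of fitting 2 groups alone, of adding sex, background reads or replicate number to the model, and of dropping single mice.

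Replicate numbers were checked for pairing by correlating deviations from the group means. Control and p53mut mice with the same number correlated at 0.152 to 0.166 in all 3 pairs, whereas no other comparison had all pairs above 0.1. The labels do not say what the number marks.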

Additional observations from a re-analysis of the deposited data

Results flagged for a closer look

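Ifi213 was picked out because the mutant Nras allele went with opposite directions on the 2 backgrounds. In mice with normal p53 every NrasG12D mouse (2.55 to 8.11 CPM) lay above every control mouse (0.307 to 1.36 CPM), and in mice with mutant p53 every NPmut mouse (0.161 to 0.607 CPM) lay below every p53mut mouse (0.635 to 0.887 CPM), a difference that did not pass the test (adjusted p = 0.375, edgeR). The interaction was −3.52 ± 0.88 on the log2 scale (SE), and the difference was not tested.

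Ifi206 was picked out because the mutant p53 allele went with opposite directions. Every p53mut mouse (0.961 to 1.33 CPM) lay above every control mouse (0.308 to 0.862 CPM), and every NPmut mouse (0.0843 to 2.12 CPM) lay below every NrasG12D mouse (4.07 to 5.60 CPM). The interaction was −3.76 ± 0.93 on the log2 scale (SE), and this difference was not tested either. These were 2 of 13 tested PYHIN genes, and the levels rest on 1 to 126 counts per library. Only the NPmut mice had received no pI-pC, which cannot be told apart from the genotype here.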

How the results depend on the processing

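Without a filter on low counts, 2 members were DEGs between NrasG12D and control mice and 2 between NrasG12D and p53mut mice, where the main analysis had 0 in each. With DESeq2 these counts were 2 and 1, and 2 in place of 1 for NPmut against NrasG12D mice, with Ifi209 added. With only the compared groups in the fit, NrasG12D against control gave 1 (Ifi204), and 1 with the replicate number as a block in addition. With sex as a covariate NPmut against NrasG12D gave 2. A minimum of 10 counts in every library leaves 5 members, without Ifi213 or Ifi211, and gave 1 DEG for NPmut against p53mut, 0 for NPmut against NrasG12D, 2 members at least 2-fold higher in NPmut against control in place of 5, and 1 interaction of at least 1 on the log2 scale in place of 4. When single mice were dropped, the counts ran from 1 to 2 for NPmut against p53mut (1 without p53mut replicate 3) and from 1 to 2 for NPmut against NrasG12D (2 without NPmut replicate 1). The causes of these differences were not tested. The replicate block gave 0 DEGs for p53mut against control, the only comparison whose numbers paired in the data, 2 for NPmut against p53mut and 1 for NPmut against NrasG12D, and moved no other count of members by over 1.5 times except the one above.

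Signs turned for 4 members in differences that did not pass. Aim2 in NrasG12D against control was −0.0069 with library totals, −0.022 without NrasG12D replicate 1, and ran from −0.059 to 0.17 over the mice dropped. In NPmut against NrasG12D, Ifi207 ran from −0.11 to 0.57 (also −0.011 without NPmut replicate 1) and Ifi204 from −0.97 to 0.081. Ifi203 in NPmut against p53mut ran from −0.26 to 0.014, and was 0.0060 with the replicate block over all groups and 0.0042 over the compared groups. With background reads as a covariate, no count of DEGs among members changed, NPmut against control moved to 2.54 for Ifi209, 3.02 for Ifi211 and 4.37 for Ifi205, and Aim2 in NPmut against p53mut no longer passed. The covariate did not overlap between NPmut mice and either of these groups, so such values rest on extrapolation. Members with under 100 counts in a library are limited by depth.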
